A study of Homo sapiens with 24 samples.

Results

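The average effect of LCL521 across both PPC1 populations was measured on the 24 libraries of the series, 12 with LCL521 against 12 without. Each library with the drug was set against the library of the same population and replicate number without it, which gave 12 pairs, 6 in parental cells and 6 in PGCC. The labels give 6 replicate numbers in each population, and the paper names 6 sets of RNA isolations. Tests and counts over 12 pairs treat them as independent, which is not ensured where both populations share a set. PPC1 is a human prostate cancer cell line, and PGCC are polyploid giant cancer cells, large cells with many copies of the genome that survive a genotoxic dose. The parental groups were not irradiated: UT cells received no drug and UT LCL cells received 5 μM LCL521 for 5 h. The PGCC groups came from a radiation dose of 8 Gy given on day 2 and were passed over a 20 micron strainer to keep the large cells, without drug (PGCC) or with the same dose of LCL521 (PGCC LCL). All cells were harvested on day 5 by the labels. The drug-free groups are labelled as untreated, so an effect of LCL521 and of its solvent or handling cannot be told apart. The strainer was used for PGCC in both arms, with and without drug.

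LCL521 is a pro-drug that inhibits acid ceramidase, the lysosomal enzyme encoded by ASAH1. Acid ceramidase splits ceramide into sphingosine and a fatty acid. The lysosome is also the place where cholesterol taken up with lipoproteins is freed and passed on by NPC1. When little sterol reaches the endoplasmic reticulum, the SREBP transcription factors are released to the nucleus and raise the genes of sterol synthesis and uptake, among them INSIG1, whose product holds SREBP back. Rag GTPases and folliculin at the lysosome surface report amino acids to mTORC1 and set whether the TFE factors, which drive lysosomal and autophagy genes, stay in the cytoplasm.

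Library totals ran from 14835246 to 19906601 counts, and 14555 of 48162 genes passed the filter on low counts. A floor of 3 counts corresponded to between 0.151 and 0.202 CPM (counts scaled to a common library size). The median total was 17569524 without LCL521 and 16871564.5 with it. The 8 epithelial markers were mixed. KRT19 lay between 509.7 and 1123 CPM, and CLDN4, KRT18, KRT8 and ELF3 did not fall below 324, 144, 50.5 and 22.9 CPM. CDH1, KRT7 and EPCAM did not exceed 6.49, 5.10 and 0.851 CPM. Of 8 prostate markers only HOXB13 passed the filter, at 306.96 to 905.3 CPM, while KLK2, KLK3 and FOLH1 were at 0 counts in every library. Summed leukocyte markers lay between 0.589 and 4.94 CPM and summed fibroblast and endothelial markers between 1.40 and 11.7 CPM over all groups. Replicate numbers 4 and 5 stood apart from 1, 2, 3 and 6 in every condition on the second principal component of log2 CPM, which held 16.5% of the variance. The first component held 55.9% and separated PGCC from parental cells.

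LCL521 moved the expression of many genes by small amounts. In a quasi-likelihood test in edgeR with the 12 pairs as blocks, 855 of 14555 genes passed an adjusted p of 0.05, or 5.87%. Of these 419 rose (2.88% of genes tested) and 436 fell (3.00%). The median log2 fold change was 0.18 among genes that rose and -0.13 among genes that fell, against a median size of 0.058 over all genes tested. Only 14 of the 855 genes changed by more than 1.5-fold. A single one passed 2-fold, AP001468.1, at a log2 fold change of 1.18 ± 0.27 (SE) and a mean of -1.14 log2 CPM. The direction was the same in all 12 pairs for 203 of the 855 genes and in at least 11 for 533. Over all 14555 genes tested these numbers were 225 and 825. The choice of the 855 by a test on the same pairs largely fixes their shared direction. Protein-coding genes made up 818 of the 855 called and 12399 of the 14555 tested. On the scale of all log2 CPM values, the drug term held 1.20% of the sum of squares, the population 55.5% and the replicate number within a population 34.9%. The rest was 8.36%. A term without any effect would also take a share, so the 1.20% is not all due to the drug.

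**Figure D1:**
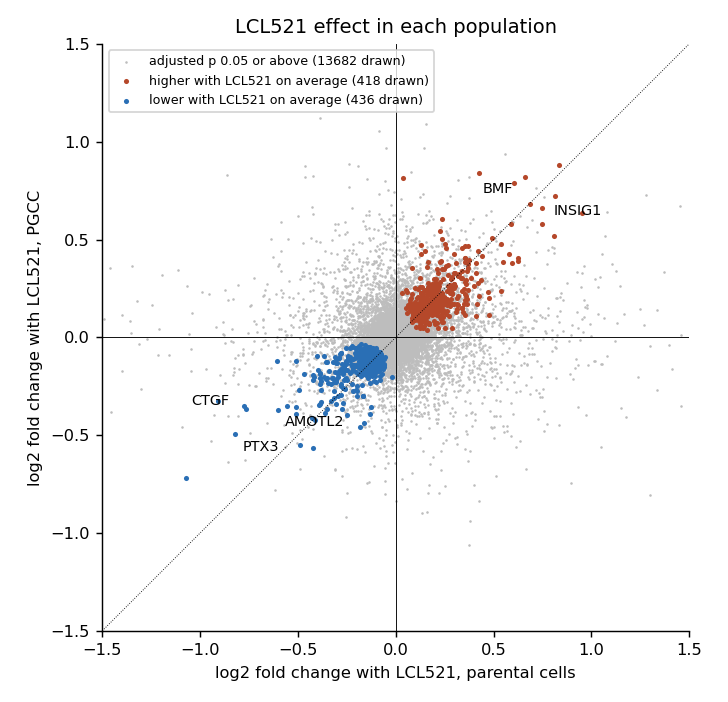
Log2 fold change with LCL521 in parental cells (x axis) and in PGCC (y axis) for 14536 genes, from 1 fit on all 24 libraries. A further 19 genes, 1 of them called, lie outside the axes. Genes called higher (orange) and lower (blue) on average lie in the upper right and lower left, and the dotted line marks equal effects.

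The effect of LCL521 was then read in each population within the fit on all 24 libraries. In parental cells 261 genes passed the threshold (1.79% of 14555) and in PGCC 96 genes (0.660%), with 60 in both. The order of these counts depended on the fit. With each population fitted by itself, 115 of 13277 genes tested passed in parental cells and 234 of 14151 in PGCC. Of the 261 genes called in parental cells, 255 had the same sign in PGCC, or 97.7%, and 95 of the 96 called in PGCC had the same sign in parental cells, or 98.96%. Over all genes tested 65.1% had the same sign in both. Genes called in parental cells had a median size of 0.26 there and of 0.15 in that direction in PGCC. Genes called in PGCC had a median size of 0.29 there and of 0.26 in parental cells. The sizes in the population that chose the genes are raised by that choice. Fitting each population by itself, 112 of 115 genes called in parental cells and 229 of 233 called in PGCC had the same sign in the other population, against 65.9% of 13091 genes tested in both fits. The log2 fold changes of the populations had a Pearson correlation of 0.20 and a Spearman correlation of 0.32 across 14555 genes. In the 10657 genes whose mean reached 2 log2 CPM these were 0.54 and 0.48. The correlations are across genes, which are not independent, and libraries of 1 replicate number in both populations may share a set of RNA isolations. All 855 genes called on average had the same sign in both populations, which the choice of the genes by their average largely fixes.

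INSIG1, which retains SREBP in the endoplasmic reticulum, showed the largest rise of all called genes whose mean reached 2 log2 CPM. Its gene (ENSG00000186480) lies on the + strand of chromosome 7, 155089486 to 155101945 in hg19. INSIG1 stood at 26.9, 35.2 and 46.9 CPM (lowest, median and highest of 6) in parental cells and at 48.4, 54.3 and 81.6 CPM with LCL521. In PGCC the values were 52.6, 59.4 and 69.4 CPM without and 77.7, 94.4 and 111.9 CPM with LCL521. Libraries with and without the drug did not overlap in either population. The fold change was 1.63, with a 95% interval of 1.51 to 1.76 (log2 fold change 0.70 ± 0.055, SE; adjusted p = 1.4e-08, edgeR), and INSIG1 was higher in 12 of 12 pairs. A two-sided exact permutation test over the 4096 sign changes of the 12 paired differences gave p = 0.000488, the smallest it can give. That test takes the 12 pairs as independent, although they carry 6 replicate numbers that occur in both populations. The lowest log2 difference of INSIG1 was in replicate 2 in both populations, at 0.34 in parental cells and 0.16 in PGCC. In each population alone, the same exact permutation test over 64 sign changes gave p = 0.03125, the smallest for 6 pairs.

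The other genes of sterol sensing and uptake rose less. Of 11 tested, 5 rose and none fell, against 2.88% and 3.00% of all genes tested. The median log2 fold change was 0.11, above 0 in 12 of 12 pairs. STARD4, a carrier of cholesterol between membranes, was at a median of 7.88 CPM in parental cells and 11.8 CPM with LCL521, and at 16.3 and 20.9 CPM in PGCC. Its log2 fold change was 0.49 ± 0.062 (SE; adjusted p = 1.45e-05, edgeR; 11 of 12 pairs). SREBF2 and SREBF1, which encode the SREBP factors themselves, rose by 0.14 and 0.11. INSIG2, the second INSIG gene, did not pass the test at 0.17 (adjusted p = 0.058, edgeR), nor did SCAP, the escort of SREBP, at 0.01.

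Sterol synthesis was the list with the largest share of called genes. Of its 20 genes, 14 rose, 1 fell and 5 did not pass the test, against 2.88% of all genes tested that rose. The list's median log2 fold change was 0.26, against -0.0045 over all genes tested, and lay between 0.10 and 0.41 in the 12 pairs. The rises ran along the pathway. They included HMGCS1, an early step, at 0.35, the mevalonate enzymes MVK and MVD at 0.38 and 0.37, IDI1 at 0.34, and the squalene enzymes FDFT1, SQLE and LSS at 0.21, 0.36 and 0.23. Late steps rose as well, MSMO1 by 0.40, HSD17B7 by 0.31, DHCR7 by 0.23 and SC5D by 0.16. PMVK, the enzyme between MVK and MVD, fell by 0.11 on the log2 scale (adjusted p = 0.0279, edgeR). FDPS and CYP51A1 had values of 0.28 and 0.12 and did not pass the test.

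MSMO1, a sterol demethylation enzyme, had the largest change of the pathway. It stood at 28.4, 31.5 and 37.1 CPM in parental cells (lowest, median, highest) and at 32.5, 39.4 and 53.4 CPM with LCL521. In PGCC it stood at 37.7, 48.5 and 57.3 CPM without and at 58.5, 62.9 and 80.6 CPM with the drug. Groups overlapped in parental cells and not in PGCC, and MSMO1 was higher in 12 of 12 pairs (adjusted p = 5.51e-06, edgeR). In the fit on all 24 libraries, 11 of the 20 genes rose in parental cells and 10 in PGCC, with medians of 0.22 and 0.24. That fit called 1.79% of all genes tested in parental cells and 0.660% in PGCC. With each population fitted by itself, 10 rose in parental cells and 14 in PGCC, against 69 of 13277 and 153 of 14151 genes tested. In replicates 1, 2, 3 and 6 alone 13 of the genes rose, and in replicates 4 and 5 alone 12. Of all genes tested, 128 of 14566 and 429 of 14868 rose in these 2 fits.

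**Figure D2:**
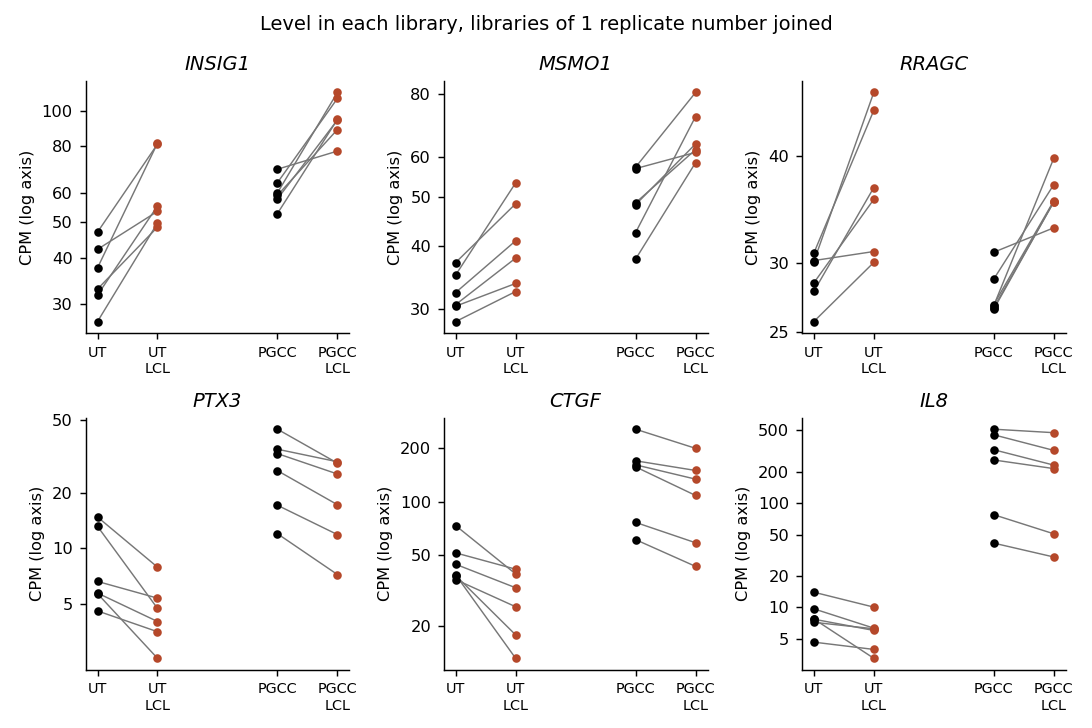
Level of 6 genes in each library in CPM on log axes, with the libraries of a replicate number joined by a line, without (black) and with LCL521 (orange) in parental cells (UT) and PGCC. INSIG1, MSMO1 and RRAGC rise and PTX3, CTGF and IL8 fall in every pair, and only INSIG1 shows groups that do not overlap in both populations.

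Genes of fatty acid synthesis moved the same way by less. Of 19 tested, 8 rose and none fell, against 2.88% of all genes tested that rose, and the median was 0.064. In the fit on all 24 libraries 4 of them rose in parental cells and 1 in PGCC. That fit called 1.79% of all genes tested in parental cells and 0.660% in PGCC. With each population fitted by itself, 4 rose in parental cells and 4 in PGCC, against 69 of 13277 and 153 of 14151 genes tested. On average 4 rose without replicate 4, against 255 of 14543 genes tested. LPIN1, a phosphatidate phosphatase, rose by 0.31 ± 0.040 (SE; adjusted p = 1.45e-05, edgeR), from a median of 88.6 to 112 CPM in parental cells and from 179 to 222 CPM in PGCC. The desaturases SCD, FADS2 and FADS1 rose by 0.23, 0.16 and 0.10. ACSS2 and FASN rose by 0.13 each, ACLY by 0.11 and ACSL3 by 0.10. With a correction for gene length the list's median was 0.022, and without replicate 6 it was 0.020.

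NPC1, which exports cholesterol from the lysosome, rose from a median of 98.6 to 124 CPM in parental cells and from 191 to 230 CPM in PGCC. Its log2 fold change was 0.36 ± 0.040 (SE; adjusted p = 3.36e-06, edgeR) with 12 of 12 pairs higher. It was the only one of 17 genes of cholesterol trafficking and efflux to rise, and 1 fell (11.8%, against 5.87% of all genes tested). CAV1, the coat protein of caveolae, fell by 0.17 on the log2 scale in 12 of 12 pairs. SCARB1, the receptor for high density lipoprotein, stood at a median of 159 and 154 CPM in parental cells and 122 and 126 CPM in PGCC. Its log2 fold change was 0.03, with a 95% interval of -0.04 to 0.09. ABCA1, a cholesterol exporter, had a value of 0.11 and did not pass the test.

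ASAH1, whose product LCL521 inhibits, did not change by the test. It stood at 59.8, 65.3 and 72.0 CPM in parental cells and at 59.3, 67.8 and 81.1 CPM with the drug, and at 46.2, 47.8 and 56.3 CPM in PGCC against 47.3, 49.99 and 53.8 CPM. Groups overlapped in both populations. The log2 fold change was 0.06, with a 95% interval of -0.0077 to 0.13 (adjusted p = 0.319, edgeR), so that a rise above 0.13 lies outside the interval. None of the 5 genes tested in the ceramidase list, which includes relatives of ceramidase genes, passed the threshold. ACER2 had a value of 0.32 ± 0.23 (SE) at medians of 0.324 to 0.882 CPM, ACER3 -0.03, NAAA 0.11 and ASAH2B, which shares sequence with ASAH2, -0.03. None of 10 genes of sphingosine and sphingosine 1-phosphate handling passed either, with SPHK1 at 0.10 and SGPL1 at -0.02. Of 35 genes of ceramide and sphingolipid synthesis and turnover, 3 rose and 1 fell (11.4%, against 5.87% of all genes tested). NEU1, a lysosomal sialidase, rose by 0.20, GBA2, a glucosylceramidase outside the lysosome, by 0.17 and KDSR, an early enzyme of the pathway, by 0.11. DEGS1, which makes ceramide from dihydroceramide, fell by 0.10 on the log2 scale.

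RRAGC, a Rag GTPase of the lysosome surface, stood at 25.7, 29.3 and 30.8 CPM in parental cells and at 30.1, 36.2 and 47.3 CPM with LCL521. In PGCC it stood at 26.5, 26.8 and 30.9 CPM without and at 33.0, 35.4 and 39.7 CPM with the drug, with no overlap. Its log2 fold change was 0.37 ± 0.045 (SE; adjusted p = 8.66e-06, edgeR; 12 of 12 pairs). Of 29 genes of the Rag, folliculin and TFE system, 5 rose and 2 fell, against 2.88% and 3.00% of all genes tested. Without replicate 4, and likewise without replicate 5, 2 of them rose, against 255 of 14543 and 206 of 14565 genes tested. FNIP1 and FNIP2, the partners of folliculin, rose by 0.32 and 0.22 and folliculin itself (FLCN) by 0.17. LAMTOR2, a subunit of the anchor of the Rag GTPases, and MIOS fell by 0.12 and 0.14 on the log2 scale. TFEB and TFE3 had values of -0.15 and -0.03 and did not pass the test. The list's median was 0.016 and turned to -0.0039 in replicates 4 and 5 alone, where 5 members rose, against 429 of 14868 genes tested.

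Lysosomal enzymes and membrane proteins held 3 genes that rose and 2 that fell of 42 (11.9%, against 5.87% of all genes tested; median 0.034). Without replicate 1, and likewise without replicate 5, 1 of them rose, against 266 of 14638 and 206 of 14565 genes tested. Without replicate 3 the number was 2, against 420 of 14563, and the median 0.013. CTNS, the cystine exporter, rose by 0.18, IDUA by 0.17 and LAMP2 by 0.08, while the cathepsins CTSB and CTSC fell by 0.12 and 0.10. Of 18 subunits of the vacuolar ATPase, which acidifies the lysosome, ATP6V1C1 and ATP6V1B2 rose by 0.13 and 0.11 (11.1%, against 5.87%). Of 39 autophagy genes, 7 rose and 1 fell (median 0.018), against 2.88% and 3.00% of all genes tested. In each population 1 rose in the fit on all 24 libraries, which called 1.79% of all genes tested in parental cells and 0.660% in PGCC. With each population fitted by itself, 1 rose in parental cells and 4 in PGCC, against 69 of 13277 and 153 of 14151 genes tested. Those that rose included the starting kinase ULK1 at 0.23 and its partner RB1CC1 at 0.19, ATG2A at 0.20, ATG14 at 0.18 and the cargo receptor SQSTM1 at 0.16. MAP1LC3B, which encodes LC3, had a value of 0.02. STX3, a syntaxin of the cell membrane, was the only one of 15 syntaxin genes called (6.67%, near the 5.87% of all genes tested). It rose by 0.37 ± 0.036 (SE; adjusted p = 1.09e-06, edgeR) in 12 of 12 pairs, from a median of 41.6 to 52.1 CPM in parental cells and from 49.8 to 63.2 CPM in PGCC.

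Genes known as targets of FOXO factors were called in both directions, 6 higher and 2 lower of 18, against 2.88% and 3.00% of all genes tested, with a median of 0.09. FBXO32, a muscle atrophy ubiquitin ligase, stood at medians of 16.04 and 20.95 CPM in parental cells without and with LCL521 and at 27.8 and 36.2 CPM in PGCC. It rose by 0.50 ± 0.052 (SE; adjusted p = 2.16e-06, edgeR) in 12 of 12 pairs. CCNG2, an unconventional cyclin, rose by 0.34, IRS2, an insulin receptor substrate, by 0.32, BCL6 by 0.22 and FOXO3 and SESN3 by 0.13 each. TXNIP fell by 0.26 and GADD45B by 0.20 on the log2 scale. Outside the lists, BMF, a pro-apoptotic member of the BCL2 family, rose by 0.68 ± 0.084 (SE; adjusted p = 9.47e-06, edgeR). BMF stood at medians of 4.73 and 8.23 CPM in parental cells and 2.41 and 4.48 CPM in PGCC, with groups that overlapped but 12 of 12 pairs higher. KLHL24, an adaptor of a ubiquitin ligase, rose by 0.59 and CREBRF, a regulator of CREB3, by 0.51, both in 12 of 12 pairs. ABTB1, UAP1L1 and ITPKB, an inositol phosphate kinase, rose by 0.43, 0.38 and 0.38. In the list of NRF2, heme and iron genes, 1 of 23 rose and 1 fell (8.7%, against 5.87% of all genes tested). HMOX1, the heme oxygenase of the oxidative stress response, rose by 0.37 in 12 of 12 pairs. It had 0.25 in parental cells and 0.48 in PGCC. The difference of 0.23 (95% interval 0.07 to 0.38) did not pass the adjustment over all genes. TXNRD1, a thioredoxin reductase and like HMOX1 a target of NRF2, fell by 0.23.

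**Figure D3:**
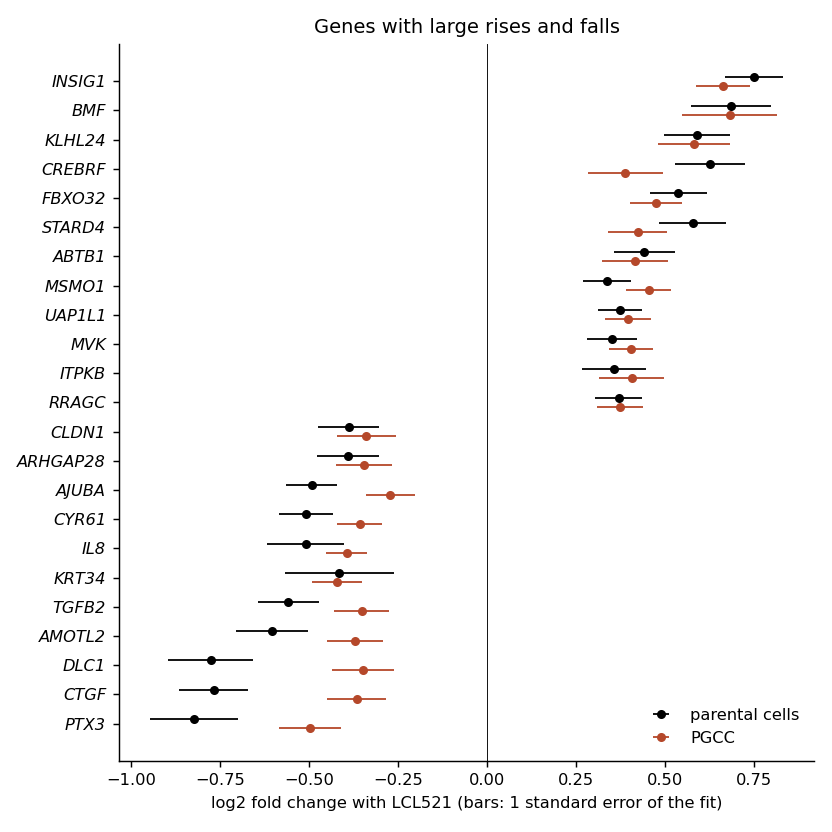
Log2 fold change with LCL521 in parental cells (black) and PGCC (orange) for 12 genes with large rises and 11 with large falls on average, with bars of 1 SE from the fit. Every gene shown has the same sign in both populations, and CTGF, DLC1 and PTX3 lie farther from 0 in parental cells than in PGCC.

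PTX3, a secreted pattern recognition protein, had the largest fall of called genes whose mean reached 2 log2 CPM. It stood at 4.57, 6.17 and 14.8 CPM in parental cells and at 2.53, 4.36 and 7.91 CPM with LCL521. In PGCC it stood at 12.01, 29.6 and 44.4 CPM without and at 7.21, 21.3 and 29.5 CPM with the drug. Groups overlapped in both populations, since replicates of a group differed more than the pairs did, but PTX3 was lower in 12 of 12 pairs. The fold change was 0.659, with a 95% interval of 0.592 to 0.733 (log2 fold change -0.60 ± 0.075, SE; adjusted p = 1.23e-05, edgeR). KRT34, a keratin, ARHGAP28 and CLDN1, a tight junction protein, fell by 0.42, 0.37 and 0.36 on the log2 scale.

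Targets of YAP, the coactivator that responds to cell shape and contact, held 8 genes that fell and none that rose of 24, against 3.00% of all genes tested that fell. CTGF, a matricellular protein and classic YAP target, stood at 36.5, 41.7 and 73.6 CPM in parental cells and at 13.2, 29.3 and 41.8 CPM with LCL521. In PGCC it stood at 61.4, 160 and 257 CPM without and at 43.4, 122 and 200.4 CPM with the drug. CTGF fell by 0.53 on the log2 scale (SE 0.072; adjusted p = 3.53e-05, edgeR) in 12 of 12 pairs. CYR61 fell by 0.42, DLC1 by 0.50, AMOTL2 by 0.46, TGFB2 by 0.45 and AJUBA by 0.38, with IGFBP3 and AXL at -0.20 and -0.15. The other 16 genes did not pass, among them TEAD1 at 0.04 and YAP1 at 0.08, and the list's median of -0.083 was far smaller than the values of the called genes. In replicates 4 and 5 alone the median was -0.0025, with 6 members lower, against 306 of 14868 genes tested. Of 16 genes of actin and SRF, FHL1 and FHL2 fell by 0.10 each (12.5%, against 5.87% of all genes tested).

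NF-κB targets and chemokines held 7 genes that fell and none that rose of 22 (median -0.13), against 3.00% of all genes tested that fell. In the fit on all 24 libraries 1 of them fell in parental cells and 4 in PGCC. That fit called 1.79% of all genes tested in parental cells and 0.660% in PGCC. With each population fitted by itself, 0 fell in parental cells and 6 in PGCC, against 46 of 13277 and 81 of 14151 genes tested. Without replicate 1 the median was -0.079. IL8, a neutrophil chemokine, stood at 4.64, 7.73 and 13.99 CPM in parental cells and at 3.25, 6.12 and 10.1 CPM with LCL521, and in PGCC at 41.4, 293 and 513 CPM against 30.5, 223 and 474 CPM. It fell by 0.42 on the log2 scale (SE 0.050; adjusted p = 7.86e-06, edgeR) in 12 of 12 pairs. The chemokines CCL20 and CXCL3 fell by 0.54 and 0.38 in 12 of 12 pairs each, at medians below 1.2 CPM in parental cells. BIRC3, an apoptosis inhibitor, fell by 0.28, the cytokine IL1B by 0.26, NFKBIA, the inhibitor of NF-κB, by 0.25 and NFKB2 by 0.13. The median of the list was -0.19 in replicates 1, 2, 3 and 6 alone, with 7 members lower. In replicates 4 and 5 alone it was 0.048, with 1 member lower. Of all genes tested, 129 of 14566 and 306 of 14868 fell in these 2 fits. Heat shock proteins held 8 genes that fell and none that rose of 21 (median -0.10), against the same 3.00%. In the fit on all 24 libraries 6 of them fell in parental cells and 0 in PGCC. With each population fitted by itself, 1 fell in parental cells and 0 in PGCC, against the same 46 of 13277 and 81 of 14151. Without replicate 1 the average effect called 2 of them lower, against 261 of 14638 genes tested. HSPA1A and HSPA1B, near-identical genes whose reads the counting may have split, fell by 0.21 and 0.17. The chaperones and co-chaperones HSPA8, DNAJA1, DNAJB1, FKBP4, STIP1 and HSPB1 fell by 0.11 to 0.13. In replicates 4 and 5 alone none of the 21 passed the test, with a median of -0.05, and in replicates 1, 2, 3 and 6 alone 5 did.

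**Figure D4:**
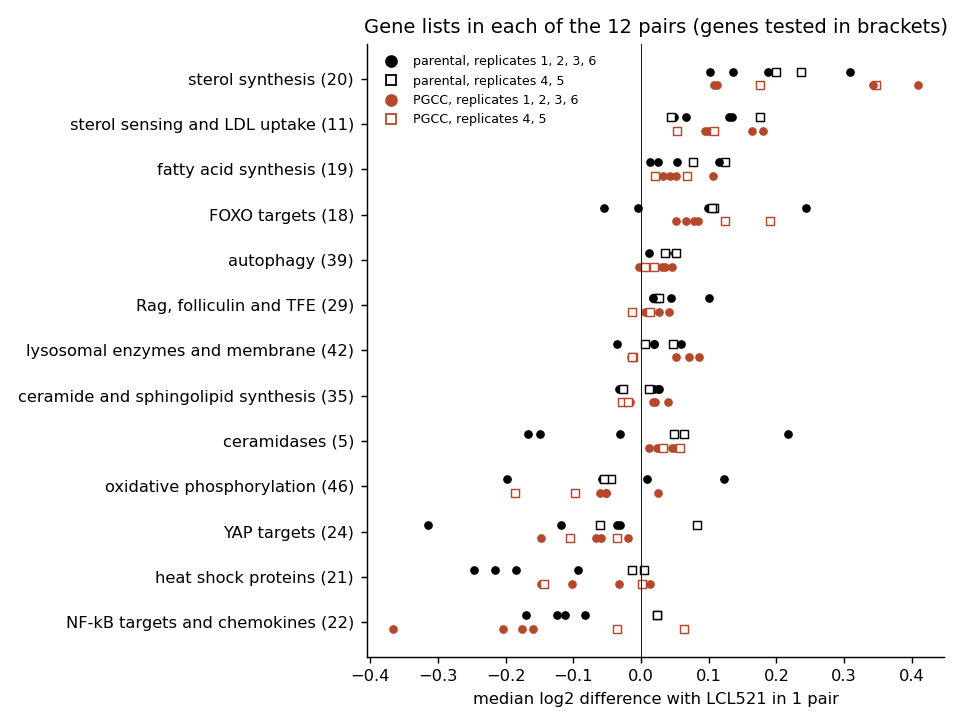
Median log2 difference with LCL521 over the tested genes of 13 lists in each of the 12 pairs, in parental cells (black) and PGCC (orange), with squares for replicates 4 and 5. Sterol synthesis, sterol sensing and fatty acid synthesis lie above 0 in 12 of 12 pairs, while NF-κB targets lie below 0 in 9 of 12.

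The remaining lists are given by their counts, against 5.87% of all genes tested. Of 8 epithelial markers CLDN4 and ELF3 rose by 0.14 and 0.15 and KRT8 fell by 0.13 (37.5%). Of 35 genes of ATF4 and amino acid stress 1 rose, GDF15, a stress cytokine, by 0.32, and 1 fell, MTHFD2, by 0.11. Of 25 genes of the unfolded protein response ERN1 and EDEM1 rose by 0.32 and 0.23. Of 27 genes of glycolysis and hypoxia NDRG1 rose by 0.28 and TPI1, LDHA and BNIP3 fell by 0.10 to 0.12 (14.8%). Of 24 immediate early and related genes JUND and SPRED1 rose by 0.13 and 0.10 and FOSL1 and JUNB fell by 0.17 and 0.11 (16.7%). Of 29 genes of matrix and adhesion 1 rose, LAMA3 by 0.21, and 2 fell, among them THBS1 by 0.17 (10.3%). A single gene each was called among 39 cell cycle genes (CDC25B higher), 39 genes of DNA replication (RRM2 lower), 24 interferon-stimulated genes (STAT2 higher) and 21 p53 targets (GDF15 higher). Of 79 cytosolic ribosomal protein genes 2 fell, with a median of -0.044, and of 46 genes of oxidative phosphorylation 1 fell, with a median of -0.066. None of 3 metallothionein and zinc genes was called.

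The promoters of genes that moved together were read from RefSeq on GRCh38.p14, as 250 bases before to 50 after the first listed start. A promoter was matched for 10698 of the 14555 genes tested and for 687 of the 855 called. The E box CACGTG, a palindrome that is the same on both strands, was found in 51 of 328 promoters of genes that rose (15.5%), in 33 of 359 of genes that fell (9.19%) and in 9.96% of promoters of genes tested, against 7.43% of all promoters of this length. INSIG1 and RRAGC, whose libraries did not overlap in PGCC, are shown with that E box in capitals, at chr7:155297628-155297927 on the + strand and chr1:38859723-38860022 on the - strand.
INSIG1: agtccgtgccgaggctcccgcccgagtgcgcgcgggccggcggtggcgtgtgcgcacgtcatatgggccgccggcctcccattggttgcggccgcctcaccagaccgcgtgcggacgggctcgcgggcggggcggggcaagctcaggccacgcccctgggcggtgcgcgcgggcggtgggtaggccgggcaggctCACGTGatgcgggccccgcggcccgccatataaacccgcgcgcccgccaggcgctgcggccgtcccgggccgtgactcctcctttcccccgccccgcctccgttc
RRAGC: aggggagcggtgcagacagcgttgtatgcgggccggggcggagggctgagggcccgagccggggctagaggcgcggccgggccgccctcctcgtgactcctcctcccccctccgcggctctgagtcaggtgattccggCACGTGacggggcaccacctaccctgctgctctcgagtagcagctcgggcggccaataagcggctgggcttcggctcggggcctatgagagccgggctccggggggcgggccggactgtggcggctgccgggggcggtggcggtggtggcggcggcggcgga
The CCAAT box, searched on both strands, was in 8 of the 10 promoters matched for called sterol synthesis genes (80%), in 12 of 15 for all tested members (80%) and in 36.6% of promoters of genes tested. A sterol element written as TCACNCCAC was in none of these 10, in 0.963% of promoters of genes tested and in 1.15% of all promoters. At that share 10 promoters cannot show a lack of the element. It was in 1 of 4 promoters of called sterol sensing and uptake genes. Among all called genes it was in 6 of 328 that rose and 1 of 359 that fell. In heat shock genes the palindrome GAANNTTC, 1 form of the heat shock element, was in 5 of 7 promoters matched for called members (71.4%), in 8 of 18 for all tested members (44.4%) and in 4.66% of promoters of genes tested. It is shown in capitals with 12 bases on each side for 3 of them, at chr6:31815425-31815456 (+ strand) in HSPA1A, chr11:123062347-123062378 (- strand) in HSPA8 and chr7:76302479-76302510 (+ strand) in HSPB1.
HSPA1A: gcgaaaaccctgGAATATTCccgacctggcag
HSPA8: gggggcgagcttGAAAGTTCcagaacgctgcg
HSPB1: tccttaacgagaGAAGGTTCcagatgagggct
The GGAATG letters of TEAD were in 2 of 6 promoters of called YAP targets, in 5 of 16 of all tested members (31.2%) and in 10.8% of promoters of genes tested. NF-κB letters written as GGGNNTTCC were in 3 of 7 promoters of called NF-κB targets, in 5 of 18 of all tested members (27.8%) and in 8.13% of promoters of genes tested. A match describes letters in this window and not a bound site.

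The difference between the populations was tested as an interaction of LCL521 with the population. Of 14555 genes 0 passed an adjusted p of 0.05 (0%) in edgeR, and 561 had an unadjusted p under 0.05. DESeq2 and limma-voom with the same blocks also called 0, with 283 and 554 at an unadjusted p under 0.05. Among the 855 genes called on average, the difference had a median size of 0.051 and a median half-width of its 95% interval of 0.15, while the average effect had a median size of 0.15. The interval of the difference included 0 for 795 of them and lay within 0.5 on the log2 scale on either side of 0 for 807. A missed threshold does not show equal effects.

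Genes with the smallest p of the difference were given by value. IFIT2, an interferon-stimulated gene, stood at medians of 34.3 and 42.0 CPM in parental cells without and with LCL521 and at 125 and 125 CPM in PGCC. Its difference, PGCC minus parental, was -0.32 on the log2 scale, with a 95% interval of -0.46 to -0.18. RGS4, a regulator of G protein signalling, rose by 0.48 in parental cells and had a value of 0.12 in PGCC, a difference of -0.36 (95% interval -0.54 to -0.18). SCN9A, a sodium channel gene, stood below 0.8 CPM in every parental library and between 0.65 and 2.31 CPM in PGCC, with a difference of -2.11 (95% interval -3.13 to -1.08). The falls of CTGF and DLC1 were larger in parental cells, at -0.77 and -0.78, than in PGCC, at -0.37 and -0.35. Their differences of 0.40 and 0.43 had intervals of 0.14 to 0.66 and 0.12 to 0.73 but did not pass the adjustment over all genes. INSIG1, in contrast, had 0.75 in parental cells and 0.66 in PGCC (difference -0.09, 95% interval -0.32 to 0.14), and RRAGC 0.37 in each (difference 0.0035, 95% interval -0.19 to 0.19).

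The number of genes called rested on the pairing of libraries. Without the replicate block 2 genes passed, INSIG1 and RRAGC, and with a block of 6 replicate numbers shared by both populations 12 passed. Without the block the sterol synthesis list had a median of 0.26 and none of its 20 genes passed. In replicates 1, 2, 3 and 6 alone 257 genes passed and in replicates 4 and 5 alone 735. Of the 257 genes, 234 had the same sign in replicates 4 and 5 (91.1%), and of 734 called in replicates 4 and 5 and tested in both, 620 had the same sign in the others (84.5%), against 61.4% of 14293 genes tested in both. The median size of the 257 genes was 0.23 where they were called and 0.17 in replicates 4 and 5. Scaled by library totals, 821 genes passed, 68.5% of them higher, against 49.0% higher with the scaling used here, and the median of all genes was 0.015 against -0.0045.

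Gene length moved with the effect. Of the 3639 shortest genes tested, up to 2014 bases, 28 rose and 132 fell, and of the 3639 longest, from 4766 bases, 201 rose and 51 fell. The Spearman correlation of the average effect with length was 0.15 across 14555 genes, and in single pairs it ran from -0.24 to 0.27. With a correction for length 1108 genes passed, 35.7% of them higher, and 787 of these were among the 855. The sterol synthesis list had 14 rises and a median of 0.26 with that correction, and the YAP list 8 falls. The part of gene length in single results was not tested further.

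**Figure D5:**
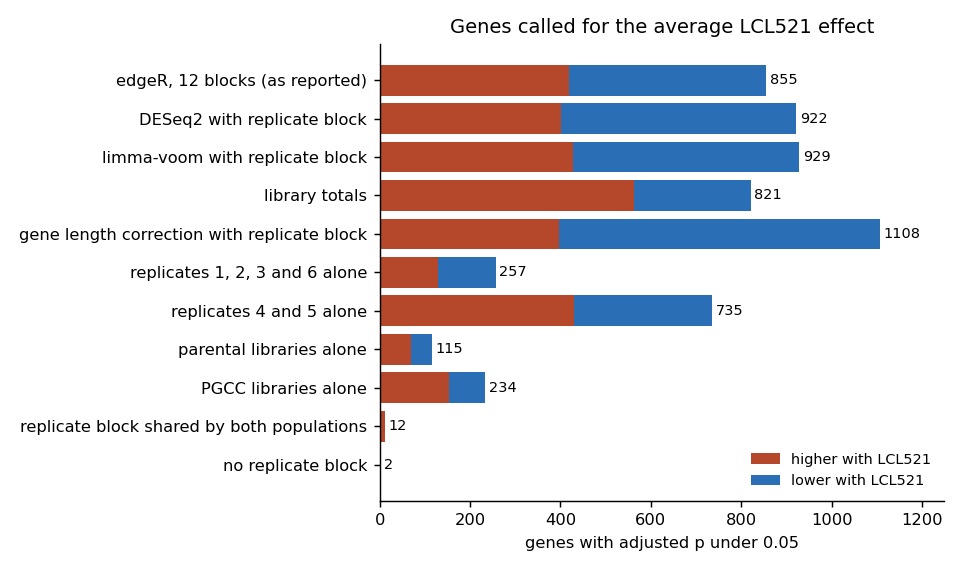
Number of genes called for the average LCL521 effect at an adjusted p under 0.05 in 11 settings, split into higher (orange) and lower (blue). The count is 855 with the 12 pairs as blocks, 12 with blocks shared by both populations and 2 without blocks.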

How the data were processed

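RNA was sequenced from 24 PPC1 samples, 6 for each of 4 conditions. The paper names 6 sets of RNA isolations, and the sample titles give replicate numbers without naming a shared experiment. Per the submitters' processing notes, CASAVA, STAR, HTSeq and DESeq2 were used with hg19. The authors deposited raw read counts per gene, as whole numbers with no normalization, with gene lengths and hg19 coordinates. The annotation release and whether counting used strand are not given in the sources used here, so overlapping, antisense and paralogous genes are uncertain. The authors' deposited table held no fold changes.

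Counts were filtered with filterByExpr (minimum count 10, minimum total 15), scaled by TMM and tested with the quasi-likelihood test of edgeR 4.0.16 in R 4.3.3, with population and replicate number as 12 blocks, Benjamini-Hochberg adjustment and a threshold of 0.05. SE is the size of the log2 fold change over the square root of F. Intervals are at the 0.95 level. Log2 CPM carried a prior count of 2. Counting intervals and floors cover counting error only. Alternatives used DESeq2 1.42.0, limma 3.58.1, other scalings, filters, blocks and subsets. The tests were run on simulated counts first.

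Replicate numbers come from the labels. Deviations from the condition mean of same-numbered libraries correlated at 0.458 to 0.813 in parental cells and 0.385 to 0.619 in PGCC. For libraries of different numbers the ranges overlapped these, at -0.578 to 0.628 (median -0.337) and -0.513 to 0.526 (median -0.199). In each population 6 of 6 drug-free libraries correlated best with the LCL521 library of their own number, so the numbers were used to pair the libraries. All 60 pairs of libraries of a condition differed by more than sampling noise.

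Named genes were the 12 largest rises and 12 largest falls (adjusted p under 0.05, mean of at least 2 log2 CPM, same direction in at least 11 pairs), up to 5 called members of each list by p, further members named beside them as examples after their values were seen, ASAH1 and the other ceramidases, INSIG1, RRAGC, STX3, SCARB1 and the 4 smallest p of the difference. Gene lists and these genes were chosen with earlier results of these data known. A few genes within this rule are not reported here.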

Additional observations from a re-analysis of the deposited data

Results flagged for a closer look

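Among 216 groups of 6 paired differences (108 genes in 2 populations), 10 had a lowest or highest pair whose gap to the next exceeded Dixon's critical share of the range for 6 values. Chance flags about 1 in 20 groups, and the share here is close to that. Parental replicate 6 accounted for 4 of them, with log2 differences of -0.30 for HSPB1, 0.86 for ERN1, -0.15 for ASAH1 and -0.90 for CXCL3. Parental replicate 2 had 0.014 for UAP1L1, 0.078 for EDEM1 and 1.91 for ACER2, a gene near the counting floor. In PGCC the values were -0.32 for FOSL1 in replicate 4, -0.86 for CXCL3 in replicate 1 and 0.39 for JUND in replicate 3.

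The paired log2 differences of SCN9A with LCL521 were above 0 in 6 of 6 parental pairs and below 0 in 6 of 6 PGCC pairs, but SCN9A passed no test, with an adjusted p of 0.146 in parental cells and 0.163 in PGCC (edgeR). The difference was -2.11 on the log2 scale, with an unadjusted p of 0.00028 and an adjusted p of 0.9996 in edgeR. Parental levels were near the floor of 3 counts, at a median of 0.128 CPM without and 0.458 CPM with the drug.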

How the results depend on the processing

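Paired blocks decided the counts. Against 855 genes called on average, 2 passed without the replicate block and 12 with a block shared by both populations. For parental cells (261 genes) these fits gave 0 and 1, and for PGCC (96 genes) 0 and 1. With the 12 blocks kept, other tools, scalings and filters left the average count within 1.5 times. Leaving out replicates gave 394 to 933 genes on average, 123 to 256 in parental cells and 42 to 158 in PGCC. The lowest average counts came without replicates 5 (394), 1 (527) and 4 (542). Parental calls were 142, 123 and 155 without replicates 1, 5 and 6, and PGCC calls 47, 62, 42 and 42 without replicates 1, 3, 4 and 5. Without replicate 2, 61.0% of the calls were higher, and with at least 10 counts in every library 60.7%. Without parental replicate 3, chosen after seeing the data, PGCC had 158 calls. Replicates 1, 2, 3 and 6 alone gave 257 on average, 119 in parental cells and 16 in PGCC, and replicates 4 and 5 alone gave 303 in PGCC. Each population alone gave 115 (parental) and 234 (PGCC). PGCC had 268 calls with no filter and 149 with the length correction. The difference between populations had 21 calls with no filter and 12 in replicates 4 and 5 alone, against 0.

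The median of fatty acid synthesis was 0.022 with the length correction and 0.020 to 0.083 with a replicate left out. That of autophagy was 0.038 with library totals, 0.037 in parental cells alone and 0.015 to 0.038 with a replicate left out. In replicates 4 and 5 alone the medians of the Rag, folliculin and TFE list and of NF-κB targets turned to -0.0039 and 0.048, and ACER3 to 0.037. SCARB1 turned to -0.0011 in parental cells alone and ASAH2B lay between -0.056 and 0.0011 with a replicate left out, turning without replicate 5. The causes were not tested. Depth limits genes near 3 counts, such as SCN9A and ACER2.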
